A study of Homo sapiens with 6 samples.

Results

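The IFIT genes encode the interferon-induced proteins with tetratricopeptide repeats. The set described here has 4 members, IFIT1, IFIT2, IFIT3 and IFIT5, which were taken by gene symbol from a count table of 29710 genes. All 4 were found, and all 4 were among the 16515 genes that passed the filter on low counts. The set was selected on its measured difference between the study's groups, the log2 fold change and adjusted p of the same 6 libraries, so the members' levels and fold changes are given as a description, with no test.

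The study compared MDA-MB-231 cells, an established line from a triple-negative breast cancer, under 2 conditions. The control group had 3 libraries from cells with an empty vector, and the SRPK2 group had 3 libraries from cells overexpressing SRPK2 with a FLAG tag. SRPK2 is a kinase that phosphorylates the serine and arginine rich splicing factors. The design calls the replicates biological. The promoter of the vector, the way it was delivered and whether the cells were a single clone were not given in the sources used here. No interferon, virus or other stimulus is named in the labels of either group.

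IFIT genes are among the most strongly induced targets of interferon. Type I and type III interferons act through receptors, JAK kinases and a complex of STAT proteins with IRF9, which binds the interferon-stimulated response element in the promoters of its targets. IRF3, switched on by the RNA sensors RIG-I and MDA5, can reach the same element without interferon. IFIT1 binds capped RNA whose first nucleotide lacks ribose methylation and keeps it from being translated. IFIT3 binds and stabilises IFIT1, IFIT2 joins the same complexes, and IFIT5 binds uncapped triphosphate RNA ends on its own.

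The libraries held between 31140537 and 36908878 counted reads and between 23664 and 24453 genes with a read. SRPK2 lay at 37.8, 36.7 and 41.1 CPM (read counts relative to library size, scaled by TMM factors) in the controls and at 213, 248 and 294 CPM in the SRPK2 libraries. Its log2 fold change was 2.71 (SE 0.10; Benjamini-Hochberg adjusted p = 2.94e-08 by the quasi-likelihood test of edgeR), so the labels and the overexpressed gene matched in every library. All 10 listed genes typical of MDA-MB-231, such as VIM and CD44, were at 1 CPM or more. Of 8 luminal breast genes, ESR1, PGR and FOXA1 were below 1 CPM, and ERBB2, KRT19, GATA3, EPCAM and CDH1 were above it.

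The 4 genes lie in a row on the plus strand of chromosome 10 in the GENCODE 29 annotation of GRCh38. The identifiers and their versions are those of the count table, and they were matched to GENCODE 29 without the version. IFIT2 (ENSG00000119922.11) spans chr10:89283694-89309276, IFIT3 (ENSG00000119917.15) chr10:89327894-89340971, IFIT1 (ENSG00000185745.10) chr10:89392546-89406486 and IFIT5 (ENSG00000152778.10) chr10:89414586-89421001. The stretches upstream of the starts of IFIT1, IFIT3 and IFIT5 are shown for the sequence they share, which is outside the expression values that chose the members. The RefSeq promoter table of GRCh38.p14, which holds 250 bases before and 50 bases after each start, was searched for the core of the interferon-stimulated response element, GAAANNGAAA or on the other strand TTTCNNTTTC. It held entries for IFIT1, IFIT5 and both starts of IFIT3, and IFIT2 was not searched here. In the lines that follow, all on the plus strand and read 5′ to 3′, the capitals mark the cores. The IFIT1 line is chr10:89392495-89392541, the IFIT3 lines are chr10:89327829-89327896 and chr10:89332423-89332499, and the IFIT5 line is chr10:89414511-89414567.
IFIT1: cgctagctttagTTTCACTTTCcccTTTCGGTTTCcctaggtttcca
IFIT3 first start: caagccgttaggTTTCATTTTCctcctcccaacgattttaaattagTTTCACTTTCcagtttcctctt
IFIT3 second start: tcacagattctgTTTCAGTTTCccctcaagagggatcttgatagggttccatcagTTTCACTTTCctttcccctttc
IFIT5: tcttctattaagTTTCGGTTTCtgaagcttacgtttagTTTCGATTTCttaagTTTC

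These 4 entries, from 3 of the 4 genes, each held at least 2 cores, against 91 of the 35116 promoters in the whole table (0.259%). At least 1 core was found in 1255 of all promoters (3.57%) and in 33 of 57 promoters of the other core interferon-stimulated genes described further on (57.9%). In IFIT1 the cores began 116 and 103 bases before the start, a few letters apart. The first IFIT3 start had them at 156 and 122 bases before it, and the second start at 94 and 51 bases before it. IFIT5 had 3 cores, beginning 45, 19 and 4 bases before the start, and the last of them runs over the start, so only its first letters stand in the line printed. These distances run from the RefSeq starts, at 89392623 for IFIT1, 89327997 and 89332529 for IFIT3 and 89414568 for IFIT5. From these starts the element stood closest in IFIT5. The GENCODE gene models start elsewhere, at 89392546 for IFIT1, 89327894 for IFIT3 and 89414586 for IFIT5. Counted from the GENCODE starts, IFIT5 was not the closest, so the order depends on the annotation used. A window of the same size before IFIT1B, a close relative in the same row of genes, held no core. A match of letters says nothing about whether a factor was bound in these cells.

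In the empty-vector cells the 4 transcripts were already abundant. On the authors' length-scaled FPKM, IFIT3 stood at 80.2, 83.0 and 80.8 in the 3 control libraries, rank 451 of 16321 protein-coding genes. IFIT1 stood at 36.1, 37.5 and 36.2 FPKM, rank 1149, and IFIT2 at 33.1, 34.4 and 33.8 FPKM, rank 1267. IFIT5 stood between 11.7 and 12.3 FPKM, rank 3329. The order IFIT3, IFIT1, IFIT2, IFIT5 was the same in all 3 control libraries. IFIT1 and IFIT2 were close, with an FPKM ratio between 1.07 and 1.09 that lay above 1 in each control library, while IFIT3 was 2.21 to 2.23 times IFIT1 and 6.56 to 7.11 times IFIT5.

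Among 50 other core interferon-stimulated genes, 4 had a higher mean control FPKM than IFIT3. These were ISG15, BST2, LGALS3BP and IFITM3, named here after their values were seen. IFITM3 and IFIT3 were nearly equal, at 81.4 and 81.3 FPKM, and the place of IFIT3 depends on the gene length behind its FPKM. IFIT2 had 6 of the 50 above it and IFIT5 had 12.

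The FPKM of IFIT3 rests on a gene length that GENCODE 29 does not share. Taken over all counted reads, the deposited FPKM imply 5592 bases for IFIT3, 2.12 times its merged GENCODE 29 exons, against 1.10 to 1.20 times for the other 3 genes. Scaled to the GENCODE 29 lengths, the control CPM per kilobase were 174 for IFIT3, 40.9 for IFIT1, 39.8 for IFIT2 and 14.6 for IFIT5. The order of the 4 genes was the same on both scales, and the lead of IFIT3 was wider on the second.

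With SRPK2 overexpressed, IFIT3, IFIT2 and IFIT1 were 1.3 to 1.4 times their control level and IFIT5 was at its control level. IFIT3 lay at 455, 476 and 448 CPM in the controls and at 625, 662 and 656 CPM in the SRPK2 libraries. The lowest SRPK2 library was far above the highest control, and the spread within each group was small. The fitted log2 fold change of IFIT3 was 0.49 (SE 0.05, n = 3 per group), from 15463 to 25134 reads per library.

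IFIT2, which binds RNA and joins IFIT1 and IFIT3 in complexes, lay at 160, 169 and 160 CPM in the controls and at 220, 229 and 232 CPM with SRPK2. The groups were again well apart. Its log2 fold change was 0.48 (SE 0.05), close to that of IFIT3. The log2 ratio of IFIT3 to IFIT2 reads stayed between 1.48 and 1.53 in all 6 libraries, so the pair kept its proportion.

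IFIT1 lay at 186, 196 and 183 CPM in the controls and at 238, 264 and 241 CPM with SRPK2. The groups did not overlap, and SRPK2 replicate 2 stood above the other SRPK2 libraries. Its log2 fold change was 0.40 (SE 0.06). The coefficient of variation over the 3 SRPK2 libraries was 5.83% for IFIT1, against 2.77% for IFIT2 and 3.02% for IFIT3, while counting error alone was at most 1.16% of an IFIT1 value in this group.

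IFIT5 lay at 58.7, 57.7 and 58.9 CPM in the controls and at 60.8, 58.0 and 60.0 CPM with SRPK2. The groups overlapped: SRPK2 replicate 2 was below 2 of the 3 controls. The log2 fold change was 0.03 (SE 0.05), from 1874 to 2298 reads per library. Depth was lower than for the other members, with a counting error of 2.09% to 2.31% per value, which is small beside the 1.4-fold step of IFIT2 and IFIT3.

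**Figure D1:**
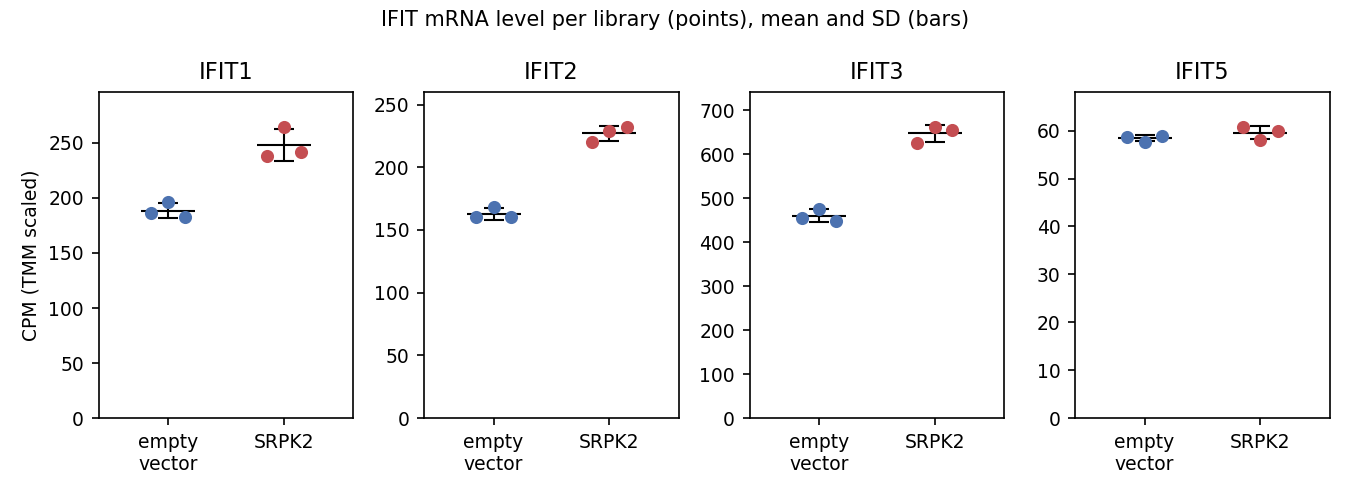
Level of each IFIT gene in CPM (TMM scaled, linear axes starting at 0, a separate axis per gene) in 3 empty-vector and 3 SRPK2 libraries; points are libraries, long bars the mean and short bars the SD. The SRPK2 points of IFIT1, IFIT2 and IFIT3 all lie above the control points, and those of IFIT5 overlap them.

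In the fit over all genes, 3 of the 4 members passed an adjusted p of 0.05, all higher in the SRPK2 cells, against 63 of 16515 tested genes in that direction (0.381%) and 75 in either direction (0.454%). The 3 members were also those with every SRPK2 library above every control, a pattern found in 1892 tested genes (11.5%), while 3327 tested genes (20.1%) had groups that did not overlap in either direction. Since the members were chosen with this contrast known, nothing is read from these counts. IFIT1 fell out of the count without empty-vector replicate 1 or without empty-vector replicate 3, and each left 2 of 4. It also fell out in limma on log2(FPKM + 1) with no filter, which left 2 of 4 as well. In bulk samples a change in the number of expressing cells and a change in RNA per cell cannot be told apart, and this holds for every difference reported here.

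The make-up of the IFIT transcripts differed between the groups. The summed FPKM of the 4 genes was 161 to 166.5 in the controls and 218 to 234 in the SRPK2 libraries. IFIT3 made up 49.5% to 49.8% of that sum in the controls and 51.4% to 52.0% with SRPK2. All shares and ratios here depend on the gene lengths behind the FPKM, and that of IFIT3 is not the GENCODE length. Scaled to the GENCODE lengths, mean CPM per kilobase went from 174.2 to 245.3 for IFIT3 and from 14.55 to 14.84 for IFIT5. The share of IFIT5 was 7.33% ± 0.29 in the controls and 5.51% ± 0.29 with SRPK2 (mean ± SD, n = 3), with no overlap. IFIT2 took 20.5% to 20.7% before and 20.8% to 21.5% after, and the share of IFIT1 overlapped between the groups, at 22.2% to 22.5% and 21.0% to 22.6%. The FPKM ratio of IFIT3 to IFIT5 went from 6.79 ± 0.29 to 9.38 ± 0.48 (mean ± SD, n = 3). On the FPKM scale IFIT1 and IFIT2 no longer kept one order. Their FPKM ratio was 0.98 in SRPK2 replicate 3 and above 1 in the other SRPK2 libraries, at up to 1.08. Their order with SRPK2 also depends on the lengths used. Scaled to the GENCODE lengths, the SRPK2 mean was 53.74 CPM per kilobase for IFIT1 and 55.35 for IFIT2.

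**Figure D2:**
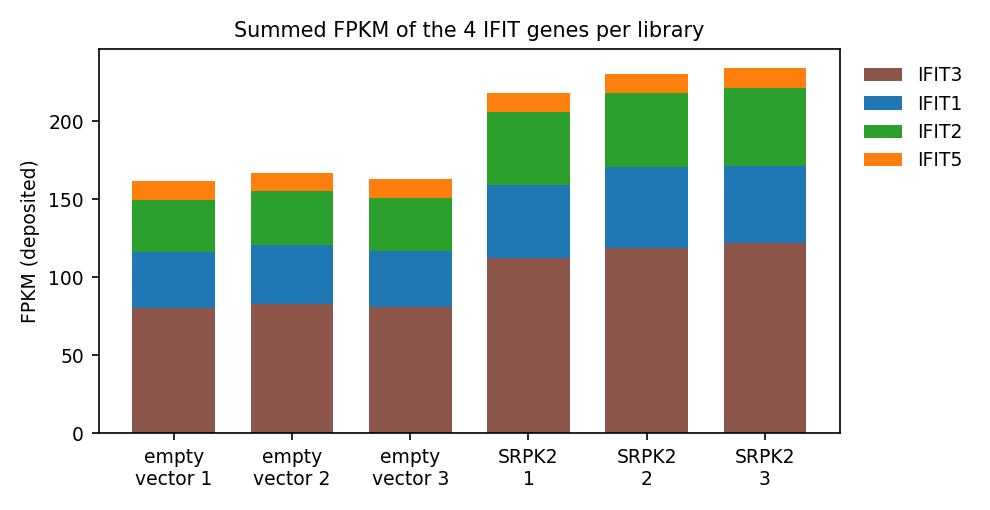
Deposited FPKM of IFIT3, IFIT1, IFIT2 and IFIT5 stacked for each library (linear axis from 0). The segment heights depend on the gene lengths behind the FPKM, and that of IFIT3 is not the GENCODE length. The SRPK2 bars reach 218 to 234 FPKM and the control bars 161 to 166.5, while the IFIT5 segment at the top stays near 12 FPKM throughout.

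The genes around the IFIT row give a view of the locus. LIPA, which encodes lysosomal acid lipase, lies on the minus strand, and its gene model at chr10:89213569-89414557 spans IFIT2, IFIT3, IFIT1B and IFIT1. RefSeq places LIPA starts at 89251775, 89342689 and 89414679. The first lies below the IFIT2 start at 89283694, so transcripts from it do not cross the IFIT genes. The counts are per gene and do not tell these starts apart. LIPA was at 108 CPM in the controls and 116 CPM with SRPK2, a log2 fold change of 0.10 (SE 0.06, adjusted p = 0.383 in edgeR), with overlapping groups. Its exons share 65 bases with IFIT2 and none with IFIT1 or IFIT3. A long noncoding RNA on the plus strand, RP11-149I23.3, shares 356 exonic bases with IFIT2 and had 167 to 251 reads. The libraries were strand-specific, but the strand setting of the counting was not given in the sources used here, and a small part of the IFIT2 value is uncertain.

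Of 20 listed neighbours 15 were in the count table, 12 were tested and 0 passed in edgeR. At an unadjusted p under 0.05 there were 2 of the 12, CH25H and FAS, against 2833 of all 16515 tested genes. DESeq2 and limma-voom each called 0. The median log2 fold change of the 12 was 0.05, against 0.00 over all tested genes. CH25H, which makes the antiviral oxysterol 25-hydroxycholesterol, is the nearest neighbour upstream of IFIT2 apart from LIPA. It lay at 5.40 CPM in the controls and 7.43 CPM with SRPK2, with no overlap and a log2 fold change of 0.46 (SE 0.10, adjusted p = 0.0717 in edgeR). Without SRPK2 replicate 2 CH25H passed (adjusted p = 0.0343 in edgeR), as did 1403 of 16772 tested genes in that fit. It also passed on library size alone (adjusted p = 0.0286 in edgeR), where 104 of 16515 did. FAS, a death receptor, had a log2 fold change of 0.30 (SE 0.10, adjusted p = 0.197 in edgeR).

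The remaining tested neighbours had smaller or less certain differences. STAMBPL1, a deubiquitinase, had a log2 fold change of 0.02 (SE 0.05), KIF20B, a kinesin, 0.07 (SE 0.06), and PANK1, a pantothenate kinase, -0.01 (SE 0.09). Values for ANKRD22 (-0.14, SE 0.39), ACTA2 (-0.17, SE 0.14) and SLC16A12 (0.40, SE 0.26) had wide errors at 0.31 to 2.60 CPM. Farther downstream the log2 fold changes were -0.02 for HTR7, -0.13 for RPP30 and 0.07 for ANKRD1. The IFIT5 value lay inside the range of these genes. IFIT1B, between IFIT3 and IFIT1, had 0 to 3 reads per library. IFIT1P1, a pseudogene of IFIT1, had 0 to 5 reads, so few reads were assigned to these near copies of IFIT1.

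**Figure D3:**
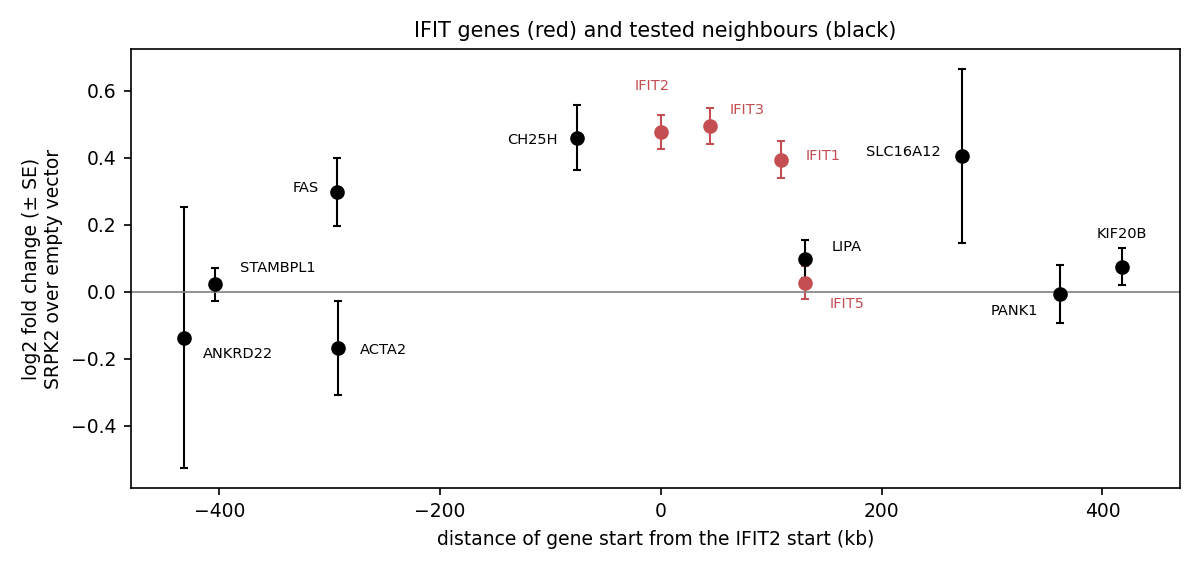
Log2 fold change (SRPK2 over empty vector, bars ± SE from edgeR) of the IFIT genes in red and of tested neighbours on either side in black, by the distance of the gene start from the IFIT2 start in kb. IFIT2, IFIT3 and IFIT1 lie between 0.40 and 0.49, and IFIT5 and LIPA lie at 0.03 and 0.10. LIPA is placed at the outer end of its gene model, close to the IFIT5 start, and it also has other starts.

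Genes of the pathways that lead to IFIT transcription, and their inhibitors, were examined next, with the interferons first. Of 22 listed interferon genes 4 were in the count table and 18 were not analysed here. The only one tested was IFNL1, a type III interferon, which rose with a log2 fold change of 2.21 (SE 0.35, adjusted p = 0.0147 in edgeR). IFNL1 was at the edge of detection, at 0.14, 0.22 and 0.08 CPM in the controls and 0.70, 0.71 and 0.63 CPM with SRPK2, that is 3 to 25 reads per library. Its call was lost without empty-vector replicate 1 (adjusted p = 0.119 in edgeR), without empty-vector replicate 3 (0.0887) and without SRPK2 replicate 1 (0.0662), and DESeq2 gave it no adjusted p.

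The genes of the receptors and of the JAK-STAT relay that carries the signal to the IFIT promoters did not pass the adjusted threshold. Of 12 genes, 0 were called by edgeR, DESeq2 or limma-voom, and 3 had an unadjusted p under 0.05, all higher with SRPK2. Every SRPK2 library was above every control in 6 of the 12, against 11.5% of all tested genes. The reverse, every SRPK2 library below every control, was seen in 0 of the 12. The list's median log2 fold change was 0.13. JAK1, the kinase shared by all interferon receptors, had a log2 fold change of 0.07 (SE 0.05, adjusted p = 0.541 in edgeR), with overlapping groups. IRF9 and IL10RB were thinly covered, at 19 to 35 and 10 to 14 reads per library, with SEs of 0.24 and 0.30.

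Among 14 sensors, adaptors and IRF factors upstream of IFIT genes, 4 rose (28.6%, against 0.381% of all tested genes) and 0 fell (0 at an unadjusted p under 0.05), with a median log2 fold change of 0.14. In 6 of the 14 (42.9%) every SRPK2 library was above every control, against 11.5% of all tested genes. DHX58, which encodes the RIG-I-like receptor LGP2, lay at 10.6, 10.4 and 10.4 CPM in the controls and at 14.8, 14.8 and 14.9 CPM with SRPK2, and rose by a log2 fold change of 0.50 (SE 0.07, adjusted p = 0.00406 in edgeR). IFIH1, the gene of MDA5, rose by 0.42 (SE 0.06, adjusted p = 0.00424 in edgeR). DDX58, the gene of RIG-I, rose by 0.40 (SE 0.05, adjusted p = 0.0045 in edgeR). STING1, the adaptor of cytosolic DNA sensing, rose by 0.31 (SE 0.06, adjusted p = 0.0328 in edgeR). The step of DHX58 was close to that of IFIT3, those of IFIH1 and DDX58 were close to that of IFIT1, and that of STING1 was smaller. IFIH1 and DDX58 also belong to the core interferon-stimulated list described further on. Whether these genes changed before the IFIT genes or together with them was not tested. Without empty-vector replicate 1 the DDX58 call was lost (adjusted p = 0.0698 in edgeR), and STING1 lost its call without any 1 library other than SRPK2 replicate 2 (0.0741 to 0.170). In limma on log2(FPKM + 1) with no filter, DHX58 passed (adjusted p = 0.0495) and the other 3 did not (0.17 to 0.179).

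Of 10 feedback inhibitors of interferon signalling 0 passed in edgeR, DESeq2 or limma-voom, and 1, USP18, had an unadjusted p under 0.05. Over all tested genes 2833 of 16515 had such a p. USP18 lay at 2.37 CPM in the controls and 3.36 CPM with SRPK2, with no overlap. Its log2 fold change was 0.51 (SE 0.15, adjusted p = 0.164 in edgeR). The median of the list was 0.03, and 6 of the 10 values were positive. ISG15, a ubiquitin-like protein that stabilises the inhibitor USP18 and the most abundant of the list, had a log2 fold change of 0.06 (SE 0.10, adjusted p = 0.748 in edgeR). TRIM27, a ubiquitin ligase, had a log2 fold change of -0.05 (SE 0.05, adjusted p = 0.651 in edgeR). Over the 4 lists together, 5 of 37 tested genes rose (13.5%, against 0.381% of all tested genes) and 0 fell (0 at an unadjusted p under 0.05). In 14 of the 37 (37.8%) every SRPK2 library was above every control, against 11.5% of all tested genes. The number that rose went to 2 without empty-vector replicate 1, to 3 without empty-vector replicate 3 or SRPK2 replicate 1, and to 8 without SRPK2 replicate 2. Over all tested genes these numbers were 24, 28, 30 and 551, in the order of the libraries named.

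The IFIT genes were then placed among 50 other core interferon-stimulated genes. Of these, 17 rose and 0 fell (0 at an unadjusted p under 0.05), DESeq2 called 18 higher and limma-voom 17, and the median log2 fold change was 0.28. The 17 are 34.0% of the list, against 0.381% of all tested genes. In 34 of the 50 (68.0%) every SRPK2 library was above every control, against 11.5% of all tested genes. The number that rose was 11 without empty-vector replicate 1 and 25 without SRPK2 replicate 2, where 24 and 551 of all tested genes rose. In limma on log2(FPKM + 1) with no filter on low values 0 passed. The list was drawn up with results of these data known, and 8 of its genes are also in the signalling lists, of which 2, IFIH1 and DDX58, rose.

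Larger steps than those of IFIT3 and IFIT2 were seen in 10 of the 50, and 19 exceeded IFIT1. OAS1, which makes the activator of the RNA-degrading enzyme RNase L, led the list with a log2 fold change of 0.81 (SE 0.09, adjusted p = 0.00198 in edgeR), but it was a rarer transcript at 5.56 CPM in the controls. CXCL10, a T cell chemokine, followed at 0.73 (SE 0.13, adjusted p = 0.0305 in edgeR) from 3.47 CPM. RSAD2 (viperin), XAF1, MX1 and the helicase gene DDX60 rose by 0.58, 0.56, 0.52 and 0.51, with SEs of 0.06 to 0.08 and edgeR adjusted p from 0.00198 to 0.0045. IFIT5 stood near the other end, with 46 of the 50 above it. The CXCL10 call was lost without empty-vector replicate 1 or 3 or SRPK2 replicate 1 (adjusted p from 0.109 to 0.198 in edgeR), and the RSAD2 call without empty-vector replicate 1 (0.0604). OAS1 did not pass in limma on log2(FPKM + 1) or log2(FPKM + 0.1) (adjusted p = 0.09 and 0.0909, log2 fold changes 0.29 and 0.71), and none of these 6 genes passed on log2(FPKM + 1) with no filter (adjusted p from 0.19 to 0.221).

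**Figure D4:**
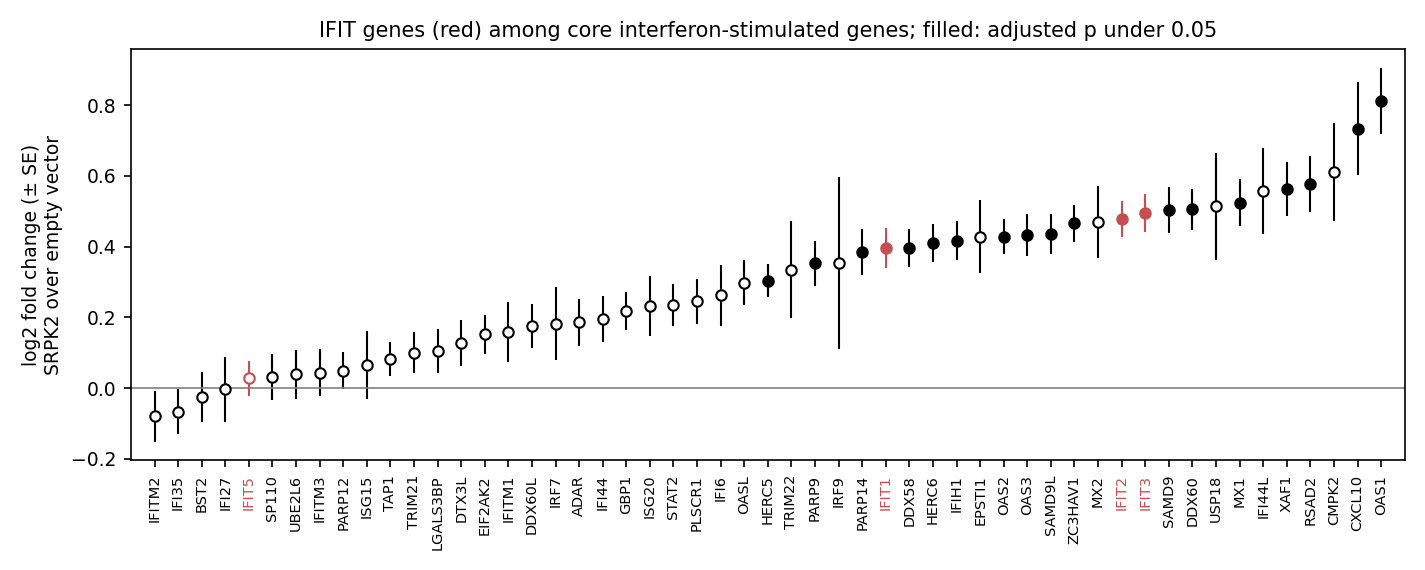
Log2 fold change (SRPK2 over empty vector, bars ± SE from edgeR) of 4 IFIT genes in red and other core interferon-stimulated genes in black sorted by value; filled points have an adjusted p under 0.05. IFIT1, IFIT2 and IFIT3 stand in the upper part of the order and IFIT5 stands near 0 with IFI27 and SP110.

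The promoter core seen in the IFIT genes was present both in core genes that rose and in core genes that did not pass. Of the 50 core genes, 42 had a promoter in the table. The 29 with a core had a median log2 fold change of 0.23 and 10 of them rose. The 13 without one had a median of 0.40 and 6 of them rose. Of all 50 core genes 34.0% rose, against 0.381% of all tested genes. That list was drawn up with results of these data known. Having no core means only that the windows searched held no exact match. IFIT5, with 3 cores, had a log2 fold change of 0.03, against 0.40 for IFIT1 and 0.49 for IFIT3, with 2 cores at each start. The part of the core in these differences was not tested.

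The shape of the IFIT response over single libraries was matched against all abundant genes. For 9423 protein-coding genes with a mean of at least 10 CPM, log2 CPM was centred on the mean of the 6 libraries, and the root mean square difference from the mean profile of IFIT1, IFIT2 and IFIT3 was taken, so a small value means a like profile. The median of all genes was 0.24. Among the nearest 10 were DHX58 at 0.04, OAS2, an oligoadenylate synthetase, at 0.05 and ZGRF1, a helicase, at 0.06. SAMD9L, DDX58, PARP9, IL7R, HERC6 and ZC3HAV1 were also among them, at 0.06 to 0.07. Of these 10, 6 belong to the core list. That list was drawn up with results of these data known, so nothing is read from this count. IFIT5 ranked 3324 at 0.22, close to the median gene.

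IL7R, the interleukin 7 receptor, lies outside the interferon lists. IL7R was at 77.8, 76.5 and 77.9 CPM in the controls and at 95.8, 99.7 and 100.3 CPM with SRPK2, a log2 fold change of 0.35 (SE 0.05). The groups were well apart. Likeness was measured over 6 libraries of the contrast that chose the members, and it is given as a description.

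**Figure D5:**
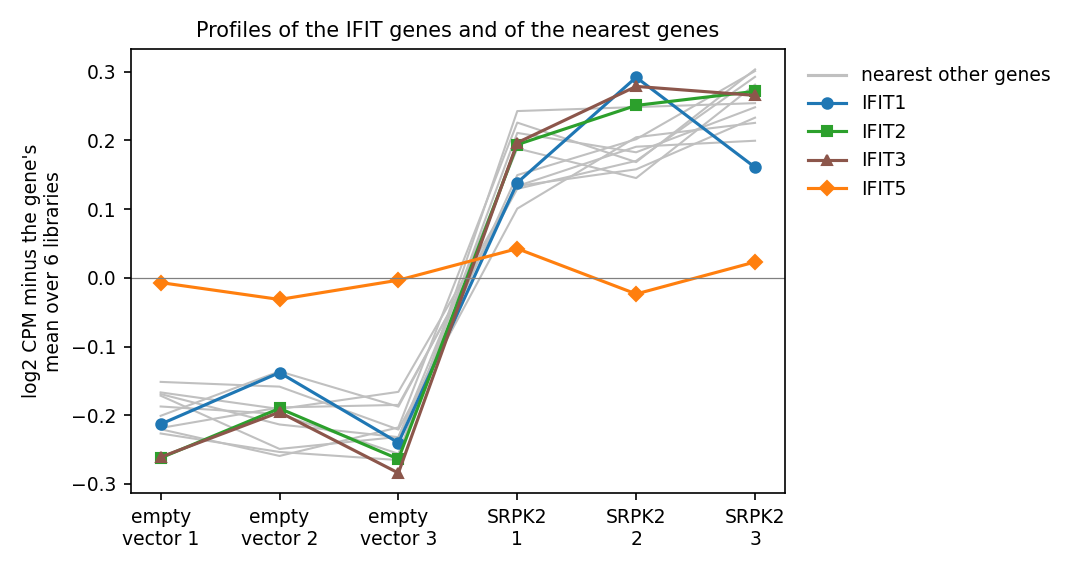
Log2 CPM of each gene minus its mean over the 6 libraries, for the IFIT genes in colour and genes nearest to the mean profile of IFIT1, IFIT2 and IFIT3 in grey; lines join the values of 1 gene and replicates have no order. The 3 coloured lines and the grey lines step up between the groups, and IFIT5 stays within 0.05 of 0.

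IFIT proteins act on capped RNA and on the initiation factor eIF3, so the genes of both were listed. Of 11 genes for cap synthesis, cap methylation and cap binding, 0 passed in edgeR, DESeq2 or limma-voom, and 1 had an unadjusted p under 0.05, with a median log2 fold change of -0.03. NCBP2 and EIF4E, the cap-binding proteins of nucleus and cytoplasm, had log2 fold changes of -0.10 (SE 0.06, adjusted p = 0.356 in edgeR) and -0.09 (SE 0.05, adjusted p = 0.39 in edgeR). Of 13 eIF3 subunits, 0 passed in any of these tools. An unadjusted p under 0.05 was found in 5, all lower with SRPK2, and the median was -0.11. For both lists the background is 2833 of 16515 tested genes with such a p, in either direction. EIF3E, which binds IFIT proteins and is the most abundant subunit by CPM, had a log2 fold change of -0.15 (SE 0.07, adjusted p = 0.279 in edgeR), and EIF3B of -0.03 (SE 0.05, adjusted p = 0.779 in edgeR). Without SRPK2 replicate 2, 4 of the 24 genes of both lists passed, all lower. In that fit 852 of 16772 tested genes passed as lower.

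Markers of other cell types that could carry IFIT transcripts were examined last. Of 12 leukocyte markers, CD14 and CD68 were at 1 CPM or more, PTPRC had 1 to 9 reads per library, and the summed level was 9.86 to 11.1 CPM in the controls and 9.12 to 10.6 CPM with SRPK2. Fibroblast markers, 4 of 8 at 1 CPM or more with COL3A1 at 0 to 3 reads, summed to 9.69 to 10.4 CPM and 12.2 to 13.5 CPM. Of 6 tested fibroblast markers 0 passed in edgeR, DESeq2 or limma-voom. In 3 of the 6, COL1A1, LUM and PDGFRB, every SRPK2 library was above every control. Their log2 fold changes were 0.35 (SE 0.12), 0.52 (SE 0.13) and 0.41 (SE 0.16). COL1A2, DCN and FAP had overlapping groups. Endothelial markers, 3 of 7 at 1 CPM or more with VWF at 0 to 3 reads, summed to 32.9 to 33.9 CPM and 38.1 to 43.5 CPM. Most of this was ROBO4, at 26.5 CPM in the controls and 33.2 CPM with SRPK2. ROBO4 rose by a log2 fold change of 0.32 (SE 0.06, adjusted p = 0.0341 in edgeR). The part of these sums in the IFIT values was not tested.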

How the data were processed

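RNA sequencing data of 6 libraries were used, 3 per group as given in the titles. RNA was, per the labels' protocols, extracted with TRIZOL, DNase treated and sequenced in paired-end mode. The submitters' processing notes list HISAT2, FastQC, bcl2fastq and GRCh38 with no version. Counting software, strand setting and annotation release were not given in the sources used here.

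The authors deposited raw, unnormalized counts per gene and, separately, FPKM values (fragments scaled to gene length and library size) for 29256 genes. The test was that of edgeR 4.0.16 under R 4.3.3 (filterByExpr, TMM factors, quasi-likelihood test, two-sided, group as the only term), adjusted by Benjamini-Hochberg over 16515 genes, which held 99.9% of the reads. The threshold was 0.05. CPM used the TMM factors, and log2 CPM a prior count of 2. Gene coordinates came from GENCODE 29. Alternatives used RLE factors, library size alone, other filters, DESeq2 1.42.0, limma-voom (limma 3.58.1), limma on log2(FPKM + 1) or log2(FPKM + 0.1) with a minimum mean FPKM of 0.5 or without a filter, a replicate block and leaving out each library. The edgeR step was tested on simulated data.

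The members and gene lists were chosen with earlier results of these data known. The text names the 4 members, SRPK2, at most 6 called genes per list by absolute log2 fold change (or the 2 most abundant where none was called), every tested neighbour and the 10 nearest profiles; genes outside the rule are those that make up a count of 5 or fewer. Libraries of the same group differed beyond counting noise (chi-square per degree of freedom 4.74 to 16.68), so none was a copy. Some genes that this rule names are not reported here.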

Additional observations from a re-analysis of the deposited data

How the results depend on the processing

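IFIT3, IFIT2 and IFIT1 kept a positive log2 fold change under all alternatives run. Leaving out 1 library gave 0.48 to 0.52, 0.46 to 0.50 and 0.35 to 0.42, and for IFIT5 0.01 to 0.05. IFIT5 gave 0.064 on library size alone, 0.059 on log2(FPKM + 1) with or without a filter and 0.064 on log2(FPKM + 0.1). Calls over all genes were 75 in the fit reported, 63 of them higher. They became 997 without a filter (390 higher, 607 lower), 133 in DESeq2 (87 higher, 46 lower), 18 on log2(FPKM + 1) without a filter and 27 to 1403 with 1 library left out; the 1403, without SRPK2 replicate 2, were 551 higher and 852 lower. The cause was not tested.

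Without a filter the calls were 8 for signalling genes, 27 for core genes, 2 for cap and eIF3 genes and 2 for neighbours. On log2(FPKM + 1) without a filter they were 2 for signalling and 0 for core genes. Neighbours had 1 call, CH25H, on library size alone and in both filtered FPKM fits. Leaving out 1 library gave 2 to 8 for signalling genes, 11 to 25 for core genes, 0 to 4 for cap and eIF3 genes and 0 to 1 for neighbours. IFIT members called were 2 or 3 of 4 throughout.

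The replicate block gave 3899 calls over all genes (1753 higher, 2146 lower), 12 for signalling, 36 for core, 15 for cap and eIF3 genes and 4 for neighbours, and 3 of 4 IFIT members. Same-numbered libraries correlated in their deviations at 0.08, 0.23 and 0.17, each best with its own number, which is a hint from the data only; the labels do not say that a number marks a shared batch.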
